A study of Arabidopsis thaliana with 12 samples.

Results

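The chloroplast genome keeps genes for its own ribosomal proteins, its RNA polymerase and a few other proteins beside the photosynthesis genes, and 26 of these gene-expression and other genes are described here. Members were the probe sets assigned to 1 chloroplast gene alone whose symbol starts with rpl, rps, rpo or ycf, or is matK, clpP, accD, cemA or ccsA. Gene identity was taken from the chloroplast gene number, so mitochondrial genes of the same name were left out. The rule gave 26 probe sets for 26 genes, out of 22746 probe sets tested, which stand for 13356 genes where a probe set is assigned to 1 gene. They comprise 7 genes for proteins of the large ribosomal subunit (rpl), 8 for proteins of the small subunit (rps), 4 RNA polymerase genes (rpo), 2 ycf genes and 5 others. Another 7 probe sets of the same families are assigned to more than 1 chloroplast gene number and are not members. In the annotation used here 8730 probe sets have no gene assigned. A gene to which no probe set is assigned may therefore still have one on the array.

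Each array was hybridised with RNA of whole Col-0 seedlings aged 10 days and grown on MS medium. The groups were T-DNA mutants of MBD4 (mbd4), MBD6 (mbd6) and MBD11 (mbd11) and wild type (WT), with 3 arrays each, labelled as biological replicates. The sources used here name no T-DNA allele and do not say whether a mutant is more than 1 line, and no probe set is assigned to MBD4, MBD6 or MBD11, so the disruption itself was not checked here. MBD proteins carry a methyl-CpG-binding domain and act on nuclear chromatin. The question addressed is which transcripts differ between each mutant and WT.

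Chloroplast genes are mostly co-transcribed in long primary transcripts that are then cut, spliced and trimmed. Transcription is shared between a bacterial-type polymerase, whose core subunits are the plastid rpo products, and a nuclear-encoded phage-type polymerase, which transcribes rpoB, rpoC1, rpoC2 and accD among others. Chloroplast transcripts mostly lack stable poly(A) tails, and a tail marks a plastid RNA for decay. The labels describe labelling by the Affymetrix 3' IVT protocol, which primes at poly(A) and favours the 3' end of a transcript. A value therefore measures the part of each chloroplast transcript that could be primed, and priming, tailing and transcript amount cannot be told apart. Because whole seedlings were used, fewer plastids or green cells and less RNA per plastid cannot be told apart either.

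Values are deposited log2 intensities, a change is mutant minus WT in log2 units, and n = 3 in every group. A call is an adjusted p under 0.05 from limma's moderated test with Benjamini-Hochberg adjustment over all 22746 probe sets. The mbd11 arrays stood apart. For plant control transcripts with probe sets at each end, the 3' signal minus the 5' signal, which grows as RNA or its copies become shorter, was 1.98 to 2.58 on the mbd11 arrays, 1.08 to 2.08 on the mbd4 arrays and 1.2 to 1.3 on the mbd6 arrays, against 1.17 to 1.5 on the WT arrays. The interquartile range of the signal was 2.83 on mbd11 replicate 2 and 3.58 to 3.94 on the other 11 arrays. Whether all 12 arrays were quantile normalized together is therefore uncertain, and this bears on every mbd11 change. With quantile normalization applied to the deposited values 18 members were called lower in mbd11, with a median of -1.52, when 17.6% of all probe sets were called lower. Of the listed green-shoot markers 3 of 16 were measured (RCA, PRK and LHCB4.1), with mean WT signals of 12.40 to 13.74. Of the listed root markers 3 of 14 were measured, led by PYK10 at 12.47.

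In mbd11 the chloroplast genes were far lower than in WT: 19 of 26 fell, 1 rose and 6 did not pass the test, with a median change of -1.66. In mbd6 the change was smaller and had one direction, with 5 of 26 called lower, 0 called higher, all 26 estimates below 0 and a median of -0.90. In mbd4 0 of 26 were called in either direction and the median was -0.14. Over all 22746 probe sets 19.7% were called lower and 20.4% higher in mbd11, 2.91% lower and 4% higher in mbd6, and 0.769% lower and 1.53% higher in mbd4. Across all probe sets the median was 0.12 in mbd11, -0.03 in mbd6 and -0.03 in mbd4. The share of members called lower was thus 73.1% in mbd11 and 19.2% in mbd6, each above the share of all probe sets. The 3 comparisons share the 3 WT arrays.

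**Figure D1:**
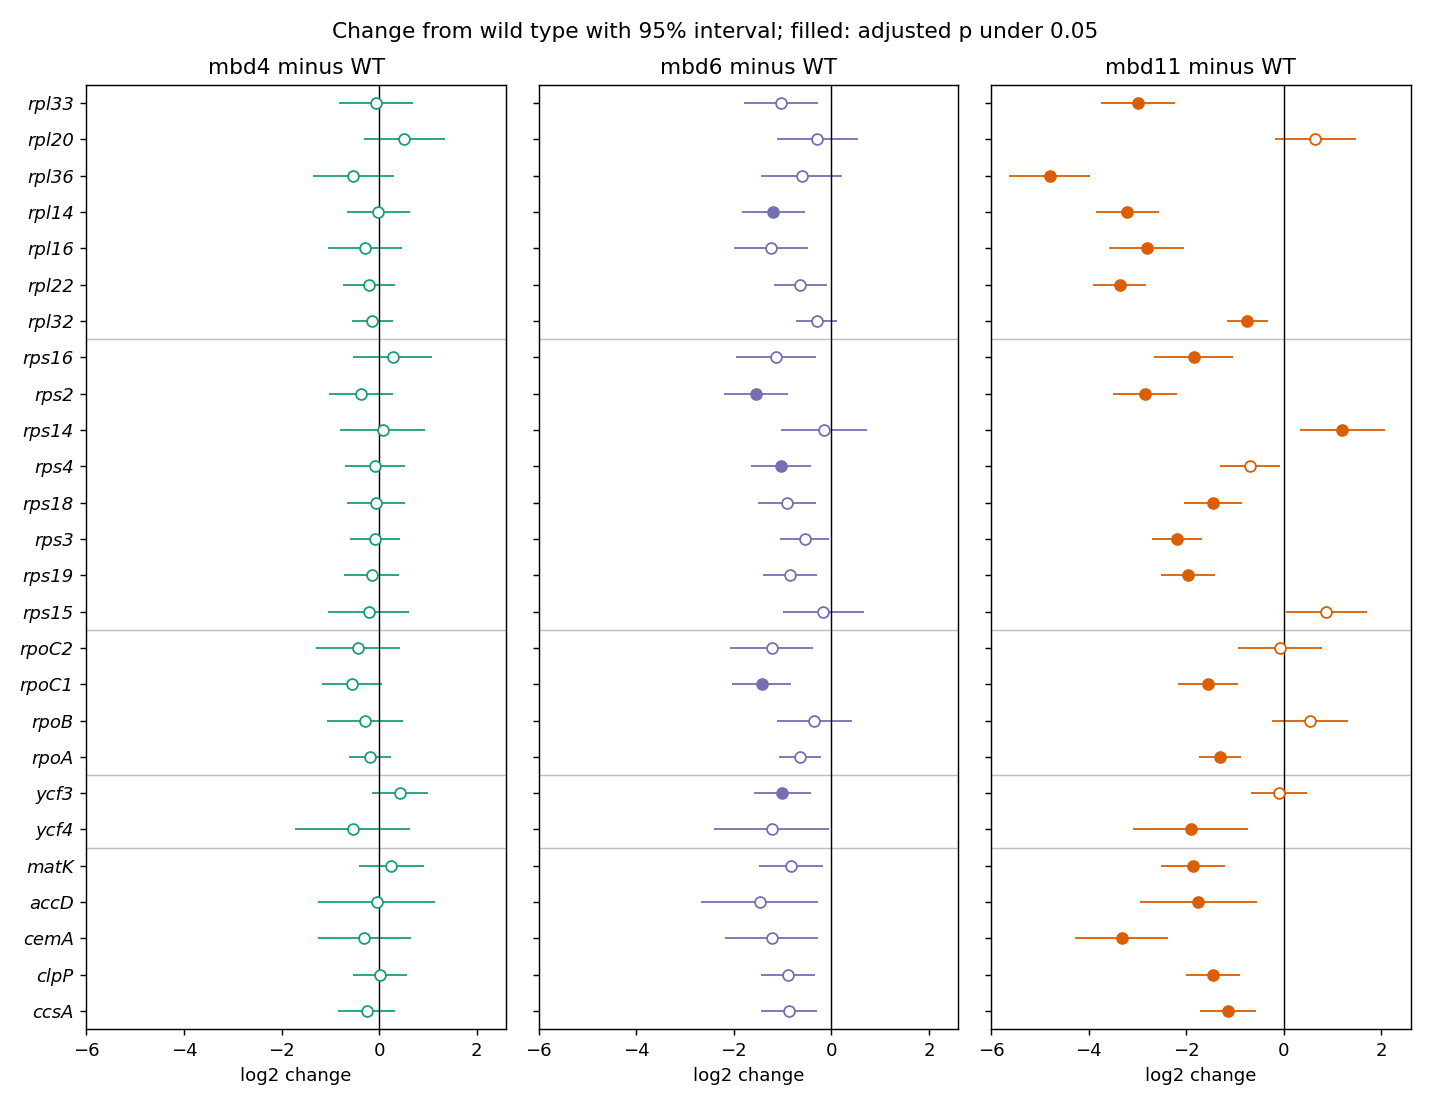
Log2 change from WT for each of the 26 chloroplast genes in mbd4, mbd6 and mbd11, one panel per mutant, with 95% intervals from limma and filled points for adjusted p under 0.05. Lines separate rpl, rps, rpo, ycf and other genes; 0 points are filled in mbd4, 5 in mbd6 and 20 in mbd11.

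Genes for large-subunit ribosomal proteins had the lowest class median in mbd11, where 6 of the 7 fell, with a median change of -2.99. In mbd6 1 of 7 fell, and their median of -0.64 was the class median nearest to 0. Differences between classes were not tested. The gene rpl36 (ArthCp057), for a small protein of the large subunit, had signals of 7.23, 5.70 and 7.00 on the mbd11 arrays, against 11.43, 11.38 and 11.51 on the WT arrays. Its change of -4.80 (SE 0.384; adjusted p = 4.76e-06), or 27.8-fold lower, was the largest among the 26. In mbd6 rpl36 had 11.12, 11.08 and 10.30, a change of -0.61 that did not pass (adjusted p = 0.547). The mbd11 and the mbd6 values all lay below the WT values for this gene, mbd11 by far the most. Set directly against mbd6, rpl36 differed by -4.19 in mbd11 (adjusted p = 1.06e-05).

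The gene rpl22 had 7.82, 7.74 and 7.50 on the mbd11 arrays, against 11.07, 10.98 and 11.09 on the WT arrays. It fell by 3.37 in mbd11 (SE 0.248; adjusted p = 3.22e-06), and the 3 arrays of each of these groups lay close together (SD 0.166 in mbd11 and 0.0568 in WT). The gene rpl14 had 8.14, 7.67 and 8.25 in mbd11 and 10.87, 9.86 and 9.36 in mbd6, against 11.35, 11.21 and 11.11 in WT. It was the single large-subunit gene called in both of these mutants, by -3.20 in mbd11 (adjusted p = 1.16e-05) and by -1.19 in mbd6 (adjusted p = 0.0301). On both sets of mutant arrays every rpl14 value lay below every WT value. In mbd6 the rpl14 call was lost when WT replicate 1, 2 or 3 was left out (adjusted p = 0.12, 0.0958 and 0.0844) and without mbd6 replicate 2 or 3 (0.116 and 0.123). Over all alternatives that adjusted p ran from 0.0015 to 0.123.

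The gene rpl33 had 7.70, 6.44 and 7.01 in mbd11, against 10.13, 9.79 and 10.21 in WT, a change of -2.99 (adjusted p = 4.95e-05). The gene rpl16, whose transcript carries an intron, changed by -2.81 in mbd11 (adjusted p = 7.56e-05) and by -1.24 in mbd6, where it did not pass (adjusted p = 0.055). The gene rpl32 fell least of the 6, by 0.74 in mbd11 (adjusted p = 0.00889). The rpl32 call was lost with quantile normalization (change -0.56; adjusted p = 0.0529). It was also lost with weights for genotype spread and with the 3' minus 5' difference as a covariate (adjusted p = 0.0919 and 0.074), where the changes of -0.74 and -0.79 were no smaller. The remaining gene of the class, rpl20, had 5.53, 4.33 and 6.09 in mbd11 against 4.84, 4.34 and 4.83 in WT, and its change of 0.65 did not pass (adjusted p = 0.189). The groups overlapped for rpl20, and without mbd11 replicate 2, its lowest mbd11 value, the change was 1.15 and passed (adjusted p = 0.00542).

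**Figure D2:**
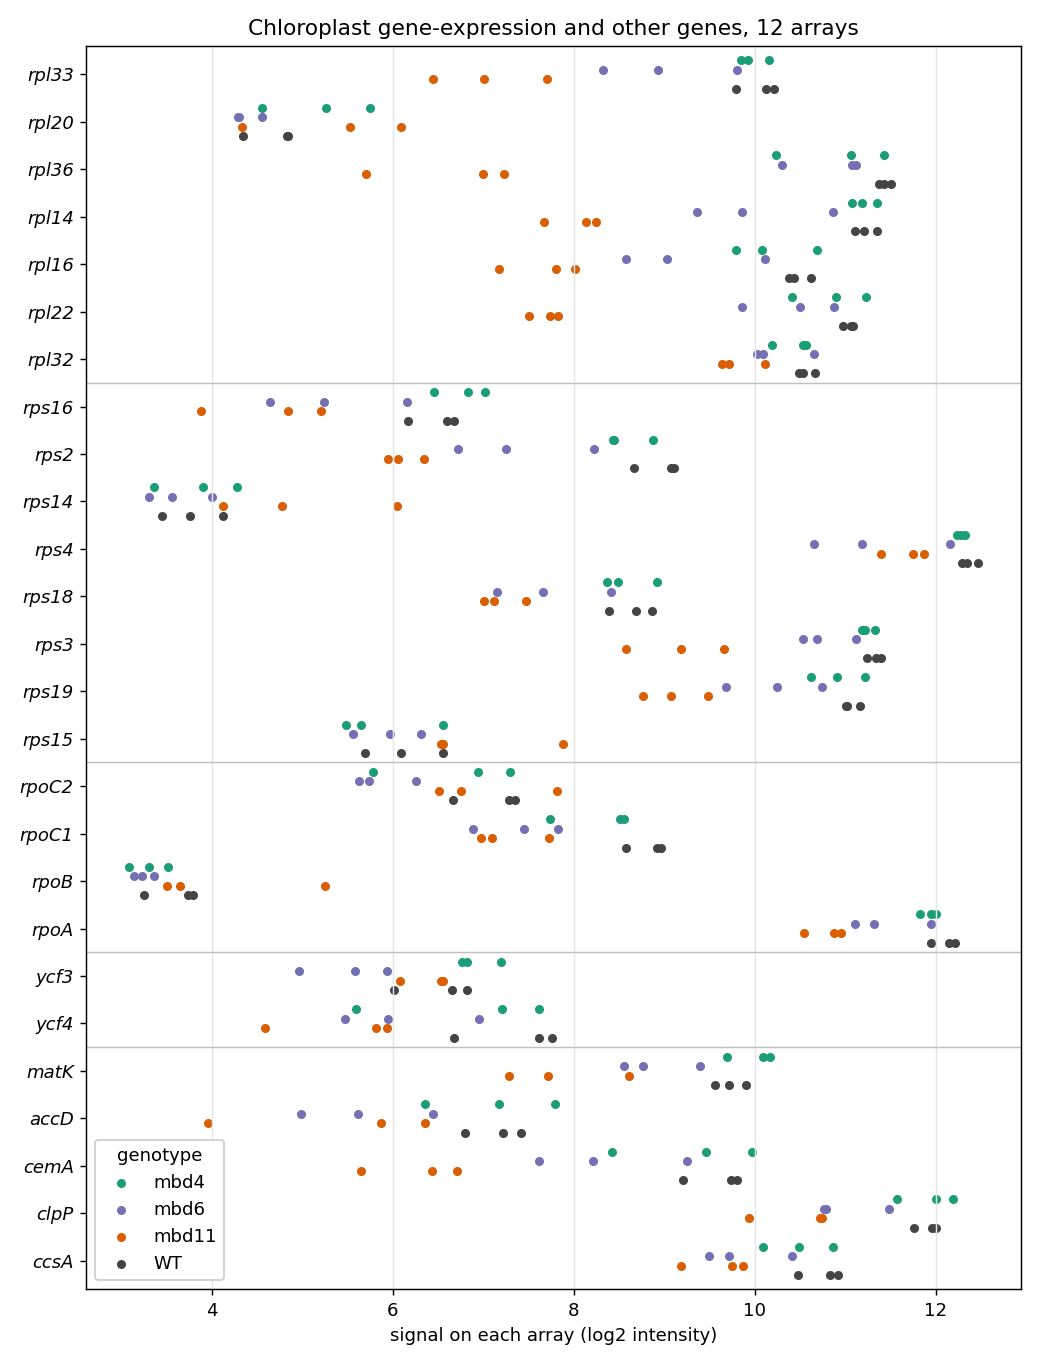
Signal of each of the 26 chloroplast genes on all 12 arrays, in log2 intensity, with 1 point per array, coloured by genotype and grouped as rpl, rps, rpo, ycf and other genes. For rpl36, rpl22, rpl33 and cemA the mbd11 points lie well to the left of all others, while mbd4 points mostly overlap WT points; signals of different probe sets do not rank transcripts.

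Among the 8 genes for small-subunit proteins 5 fell, 1 rose and 2 did not pass in mbd11 (median change -1.65), and 2 fell in mbd6 (median -0.88). The gene rps2 had 6.34, 5.94 and 6.06 in mbd11 and 8.22, 7.25 and 6.72 in mbd6, against 8.67, 9.11 and 9.08 in WT. It fell by 2.84 in mbd11 (adjusted p = 2.75e-05) and by 1.55 in mbd6 (adjusted p = 0.00748), the largest fall of the 26 in mbd6. The 3 groups of rps2 values did not overlap, and the direct comparison of mbd11 with mbd6 passed as well (change -1.28; adjusted p = 0.0052). The genes rps3, rps19, rps16 and rps18 changed by -2.19, -1.96, -1.85 and -1.45 in mbd11, each past the test. In mbd6 the same 4 genes changed by -0.55, -0.84, -1.14 and -0.91 without passing (adjusted p = 0.0725 to 0.243).

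The gene rps4 was called in mbd6 and not in mbd11, with estimates below 0 in both. It had 11.87, 11.40 and 11.75 in mbd11 and 12.16, 11.19 and 10.66 in mbd6, against 12.35, 12.29 and 12.47 in WT. Its change of -1.04 in mbd6 passed (adjusted p = 0.0471) and its change of -0.70 in mbd11 did not (adjusted p = 0.0675), though every mutant value lay below every WT value in both. The direct difference between mbd11 and mbd6, 0.34 with a 95% interval of -0.28 to 0.96, did not pass (adjusted p = 0.338). The rps4 call in mbd6 was the least firm, with adjusted p from 0.00161 to 0.183 over the alternatives. It was lost without any 1 WT array (0.134, 0.116 and 0.169), any 1 mbd4 array (0.0719, 0.0732 and 0.0678), mbd6 replicate 2 or 3 (0.161 and 0.183) or mbd11 replicate 1 or 3 (0.0522 and 0.0542). In mbd11 rps4 passed without mbd6 replicate 1 or 3 (adjusted p = 0.00864 and 0.0298).

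The gene rps14 was the single member called higher in any mutant. It had 4.12, 6.05 and 4.77 in mbd11, against 4.12, 3.45 and 3.76 in WT, a change of 1.204 (adjusted p = 0.0319). The groups touched at 4.12, and the mean rps14 signal in WT, 3.78, stood above only 23.1% of all probe sets. The call was lost without mbd11 replicate 2 (change 0.67; adjusted p = 0.0754) and without WT replicate 2 or 3 (0.11 and 0.0774), with adjusted p from 0.00522 to 0.11 over all alternatives. The gene rps15 had 6.53, 7.88 and 6.55 in mbd11 against 6.09, 5.69 and 6.55 in WT, a change of 0.88 that did not pass (adjusted p = 0.0833).

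The 4 genes of the plastid RNA polymerase differed in their calls. In mbd11 rpoA and rpoC1 fell and rpoB and rpoC2 did not pass, and in mbd6 rpoC1 alone fell. The gene rpoA, for the alpha subunit, had 10.88, 10.54 and 10.96 in mbd11, against 12.22, 12.15 and 11.95 in WT, a change of -1.31 (adjusted p = 0.000303). In mbd6 it had 11.95, 11.11 and 11.32, with replicate 1 inside the WT range, and its change of -0.65 did not pass (adjusted p = 0.0816). The gene rpoC1, for the beta' subunit, had 6.97, 7.09 and 7.73 in mbd11 and 7.82, 7.45 and 6.89 in mbd6, against 8.92, 8.58 and 8.96 in WT. It fell by 1.56 in mbd11 (adjusted p = 0.00103) and by 1.43 in mbd6 (adjusted p = 0.00822), with both sets of mutant values below all WT values. The mbd11 call of rpoC1 was lost with the 3' minus 5' difference as a covariate (adjusted p = 0.0513).

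The gene rpoC2, for the beta'' subunit, had 6.75, 7.81 and 6.51 in mbd11 and 6.25, 5.74 and 5.62 in mbd6, against 7.28, 6.66 and 7.35 in WT. It differed by -0.07 in mbd11 (adjusted p = 0.891) and by -1.23 in mbd6 (adjusted p = 0.0975), and neither passed. The difference between these mutants was called, with rpoC2 higher in mbd11 than in mbd6 by 1.15 (95% interval 0.29 to 2.01; adjusted p = 0.0341). The gene rpoB, for the beta subunit, had 3.65, 5.25 and 3.50 in mbd11, against 3.73, 3.25 and 3.79 in WT. Its WT mean of 3.59 stood above only 19.7% of all probe sets, and its change of 0.54 did not pass (adjusted p = 0.235). These genes follow each other on the plastome as rpoB, rpoC1, rpoC2 and rps2, and their mbd11 changes of 0.54, -1.56, -0.07 and -2.84 differed from one to the next. Over all alternatives these changes ran from -0.02 to 1.20, -1.79 to -1.25, -0.47 to 1.17 and -2.98 to -2.70 in that order.

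The products of ycf3 and ycf4 help assemble photosystem I. In mbd11 ycf4 fell by 1.91 (adjusted p = 0.0143), with 4.58, 5.93 and 5.81 against 7.76, 6.67 and 7.61 in WT. The ycf4 call was lost without WT replicate 1 or 3 (adjusted p = 0.0577 and 0.0515) or mbd11 replicate 1 (0.0522), and ran from 0.00601 to 0.415 over all alternatives. The ycf4 change was -0.82 with the 3' minus 5' difference as a covariate (adjusted p = 0.415) and -1.18 with the 25S rRNA control signal as a covariate (0.0909). The gene ycf3 had 6.55, 6.08 and 6.53 in mbd11 and 5.93, 5.58 and 4.96 in mbd6, against 6.65, 6.01 and 6.82 in WT. Its change of -1.003 in mbd6 passed (adjusted p = 0.0397) and its change of -0.105 in mbd11 did not (adjusted p = 0.762), where its values overlapped WT. The call in mbd6 was lost without WT replicate 1 or 3 (adjusted p = 0.155 and 0.19), any 1 mbd4 array (0.051, 0.0614 and 0.054) or mbd6 replicate 2 or 3 (0.0952 and 0.174), and ran from 0.00292 to 0.19. Between the mutants ycf3 was higher in mbd11 than in mbd6 by 0.90 (adjusted p = 0.0172).

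All 5 genes outside the ribosome, polymerase and ycf groups fell in mbd11, and 0 of 5 were called in mbd6, where the median change was -0.89. The gene cemA, for a protein of the inner envelope membrane, had 5.65, 6.71 and 6.43 in mbd11, against 9.81, 9.21 and 9.74 in WT. It fell by 3.32 (SE 0.442; adjusted p = 0.000115), and in mbd6 it had 9.25, 8.21 and 7.61, overlapping WT at replicate 1. The gene matK, for the maturase that helps splice group II introns, had 7.71, 7.28 and 8.61 in mbd11 against 9.72, 9.56 and 9.90 in WT, a change of -1.86 (adjusted p = 0.000486). The gene clpP, for the proteolytic subunit of the Clp protease, had 10.74, 9.94 and 10.72 in mbd11 against 11.96, 11.76 and 12.01 in WT, a change of -1.44 (adjusted p = 0.000796). Both genes were below all WT values in mbd6 too, by -0.82 and -0.89, without passing (adjusted p = 0.163 and 0.0556).

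The gene accD, for a subunit of acetyl-CoA carboxylase in fatty acid synthesis, had 5.87, 3.96 and 6.36 in mbd11 and 6.44, 5.61 and 4.98 in mbd6, against 7.22, 6.80 and 7.42 in WT. Its change of -1.75 passed in mbd11 (adjusted p = 0.0239), and its change of -1.47 in mbd6 did not (adjusted p = 0.171). Without mbd11 replicate 2, the lowest value, accD changed by -1.04 and the call was lost (adjusted p = 0.054), as it was without WT replicate 1 or 3 (0.0653 and 0.0769; 0.00828 to 0.212 over all alternatives). It was also lost with the 3' minus 5' difference (change -1.51; adjusted p = 0.212) or the 25S rRNA control signal (-1.30; 0.129) as a covariate. The same held with only the 6 arrays compared (0.0598), weights for genotype spread (0.0814) and a floor of 4 (0.073). The gene ccsA, which attaches haem to c-type cytochromes, had 9.75, 9.19 and 9.87 in mbd11 against 10.83, 10.48 and 10.92 in WT, a change of -1.14 (adjusted p = 0.00513). That call was lost with weights for genotype spread (adjusted p = 0.0669) and with the 3' minus 5' difference as a covariate (0.134).

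Neighbouring genes of the main ribosomal operon were all lower in mbd11, but by unequal amounts. Of the 12 genes listed for this operon, 7 are members, and 7 of 7 fell in mbd11, with a median of -2.81. In the order of the genome the changes in mbd11 were -1.96 for rps19, -3.37 for rpl22, -2.19 for rps3, -2.81 for rpl16, -3.20 for rpl14, -4.80 for rpl36 and -1.31 for rpoA. The 95% intervals of the neighbours rpl22 (-3.90 to -2.83) and rps3 (-2.69 to -1.68) did not overlap, and neither did those of rpl36 (-5.63 to -3.97) and rpoA (-1.75 to -0.88). The amounts followed no steady order along the operon. In mbd6 the same 7 genes changed by -0.55 to -1.24, with rpl14 the one call. The operon genes rpl2 and rpl23 are not members, as their probe sets are assigned to more than 1 gene number. These changed by -1.745 and -2.34 in mbd11 (adjusted p = 4.73e-05 and 0.000666). In mbd6 they changed by -0.80 and -0.86 (adjusted p = 0.031 and 0.311).

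**Figure D3:**
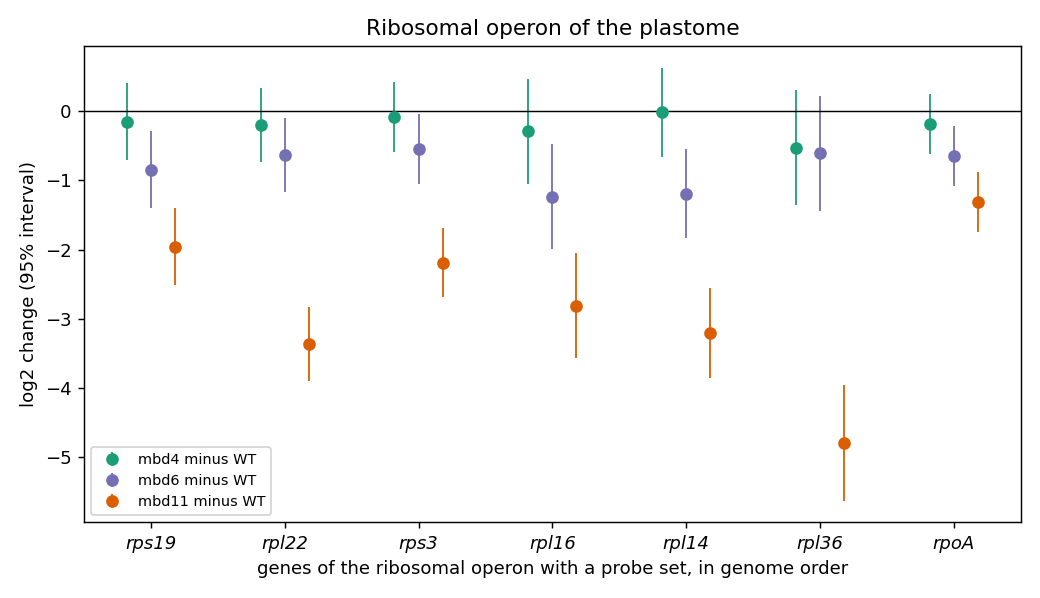
Log2 change from WT with 95% interval for the 7 members in the ribosomal operon in genome order, in mbd4, mbd6 and mbd11. The mbd11 changes run from -1.31 for rpoA to -4.80 for rpl36, and the mbd4 intervals all include 0.

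Genes that are transcribed mainly by the nuclear-encoded polymerase were listed as accD, rpoB, rpoC1, rpoC2, ycf2, rps15, rpl32 and clpP, of which 7 are members. In mbd11 4 of these 7 fell and 3 did not pass, with a median change of -0.74, beside -1.66 for all 26. In mbd6 1 of the 7 fell and the median was -0.89, beside -0.90. The 26 include these 7, and the difference between these genes and the other members was not tested. Mean WT signals were 3.59 for rpoB, 6.11 for rps15, 7.10 for rpoC2 and 7.15 for accD. They were 8.82 for rpoC1, 10.56 for rpl32 and 11.91 for clpP. Members with a mean WT signal under 8 had a median change of -0.07 in mbd11, beside -1.96 for those of at least 8. The part of signal strength in the lists' medians was not tested.

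In mbd4 the estimates were small. For rpl36 the signals were 11.43, 11.07 and 10.24 in mbd4 against 11.43, 11.38 and 11.51 in WT, and the change of -0.53 did not pass (adjusted p = 0.789). The change of lowest value in mbd4 was that of rpoC1, -0.55 (95% interval -1.16 to 0.07; adjusted p = 0.546), and the highest that of rpl20, 0.52 (-0.32 to 1.36; adjusted p = 0.798). At an unadjusted p under 0.05 limma gave 0 members lower and 0 higher in mbd4, beside 5.26% and 5.75% of all probe sets. In mbd6 the same threshold gave 20 members lower and 0 higher, beside 8.14% and 8.4% of all probe sets. Beside the call counts, 1 of 26 members had all 3 mbd4 values below all 3 WT values, where 15.7% of all probe sets did. The same count was 16 of 26 in mbd6 (19.6% of all probe sets) and 20 of 26 in mbd11 (22.7%).

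Compared directly, mbd6 was below mbd4 for 25 of 26 members, with a median difference of -0.83, but only ycf3 was called (-1.44; adjusted p = 0.0165). Over all probe sets 1.1% were called lower and 0.95% higher in mbd6 than in mbd4. The ycf3 call was lost without any 1 mbd4 array or without mbd6 replicate 2 or 3, where 0 members were called. In mbd11, 18 members were called lower and 2 higher than in mbd4, beside 19.8% and 22.5% of all probe sets. Against mbd6, 11 members were lower in mbd11 and 4 higher, beside 19.9% and 22.5% of all probe sets. The 11 include the 7 members in the operon with rpl33, rps2, cemA and matK, and the 4 are rps14, rpoC2, rps15 and ycf3. The share of members called higher, 15.4%, was below that of all probe sets. All 4 had a mean WT signal under 8, a range in which all probe sets had a median of 0.21 in mbd11 against mbd6. With only the 6 arrays compared, or with weights for genotype spread, 0 members were called higher, when 2241 and 2802 of all 22746 probe sets were.

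In each genotype 1 array held the lowest value for most members: 21 of 26 in mbd6, 19 in mbd4, 20 in WT and 15 in mbd11. In mbd6 replicate 1 was the highest of its 3 arrays for 23 of 26 members, and replicate 3 the lowest for 21, where over all probe sets these shares were 30.6% and 29.4%. The median of the members, each set against its WT mean, was -0.33, -1.01 and -1.44 on mbd6 replicates 1, 2 and 3. In mbd4 these medians were 0.16, -0.15 and -0.43, and replicate 3 was the lowest for 19 of 26 (34.7% of all probe sets). In mbd11 they were -1.74, -1.69 and -1.16, against 0.07, -0.16 and 0.14 in WT, where replicate 2 was the lowest for 20 of 26 (36.8% of all probe sets). In mbd11 replicate 2 was the lowest for 15 members and the highest for 7, beside 39.3% and 41.5% of all probe sets, and replicate 3 was the highest for 11, beside 28.3%. The count of members called lower in mbd6 was 13, with a median of -1.18, without replicate 1, and 2 without replicate 2 or 3 (medians -0.86 and -0.68), where 1.49%, 1.66% and 1.59% of all probe sets were called lower. It was 2, 3 and 2 without WT replicates 1, 2 and 3 (1.47%, 1.45% and 1.27% of all probe sets). It was 3 without mbd4 replicate 1 or 2 (2.37% and 2.29%), and 16 without mbd11 replicate 2 (6.64%).

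All 12 arrays share 1 estimate of the spread in this test. The median within-group SD of the members was 0.498 in mbd11, 0.482 in mbd6 and 0.308 in mbd4, against 0.226 in WT. With only the 6 mbd6 and WT arrays 21 of 26 members were called lower in mbd6, when 10% of all probe sets were, and without the mbd11 arrays 17 were, when 8.95% of all probe sets were. With the replicate number as a block 8 were called lower, when 2.41% of all probe sets were.

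Control signals moved with some of these arrays, and their part in the changes was not tested beyond the covariates given here. The control for 25S rRNA, an RNA that largely lacks poly(A) tails, had 5.43, 5.25 and 5.37 on the mbd11 arrays, 9.75, 9.61 and 5.69 on the mbd4 arrays and 6.22, 6.83 and 6.73 on the mbd6 arrays, against 7.79, 5.64 and 7.90 on the WT arrays. The lowest member medians within mbd4 and within WT fell on the arrays with the lowest 25S signal and the highest 3' minus 5' difference of their genotype, mbd4 replicate 3 (2.08) and WT replicate 2 (1.5). In mbd6 the highest member values fell on the array with the lowest 25S signal, replicate 1, and its 3' minus 5' differences of 1.3, 1.2 and 1.25 lay inside the WT range. With the 3' minus 5' difference as a covariate 14 members were called lower in mbd11 (median -1.47; 14.5% of all probe sets) and 5 in mbd6 (median -0.91; 3.28% of all probe sets). With the 25S signal as a covariate, an alternative chosen after seeing the data, the counts were 17 in mbd11 (median -1.345; 16.5% of all probe sets) and 3 in mbd6 (median -0.86; 2.83% of all probe sets). Every mbd11 array had a higher 3' minus 5' difference and a lower 25S signal than every WT array, so in mbd11 genotype and these measures cannot be told apart.

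**Figure D4:**
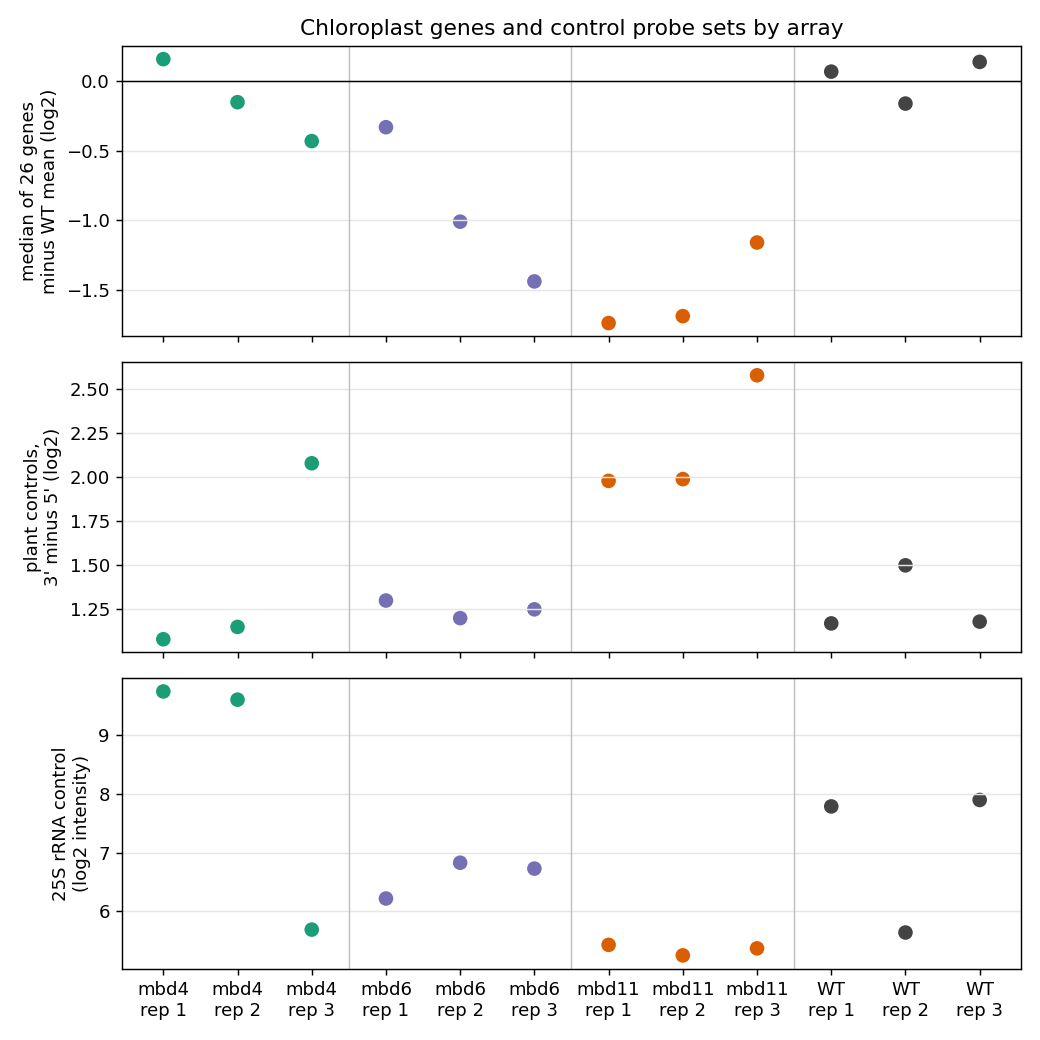
For each of the 12 arrays, the median over the 26 chloroplast genes of the log2 signal minus its WT mean (top), the mean 3' minus 5' difference of plant control probe sets (middle) and the signal of the 25S rRNA control (bottom). The member median is lowest on mbd11 replicate 1 at -1.74, and the mbd6 arrays spread from -0.33 to -1.44 while their control values stay close together.

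In mbd11 the change also depended on the strength of the WT signal, for members and for other probe sets. A level of 8 was chosen after seeing the data. Of the 17 members with a mean WT signal of at least 8, 16 fell in mbd11 with a median change of -1.96, beside 44.6% called lower and a median of -0.38 among all probe sets of that range. Of the 9 members under 8, 3 fell and 1 rose, with a median of -0.07, beside 13% called lower and a median of 0.20. In mbd6 the medians were -0.89 for the 17 and -1.003 for the 9, beside -0.06 and -0.03 among all probe sets.

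**Figure D5:**
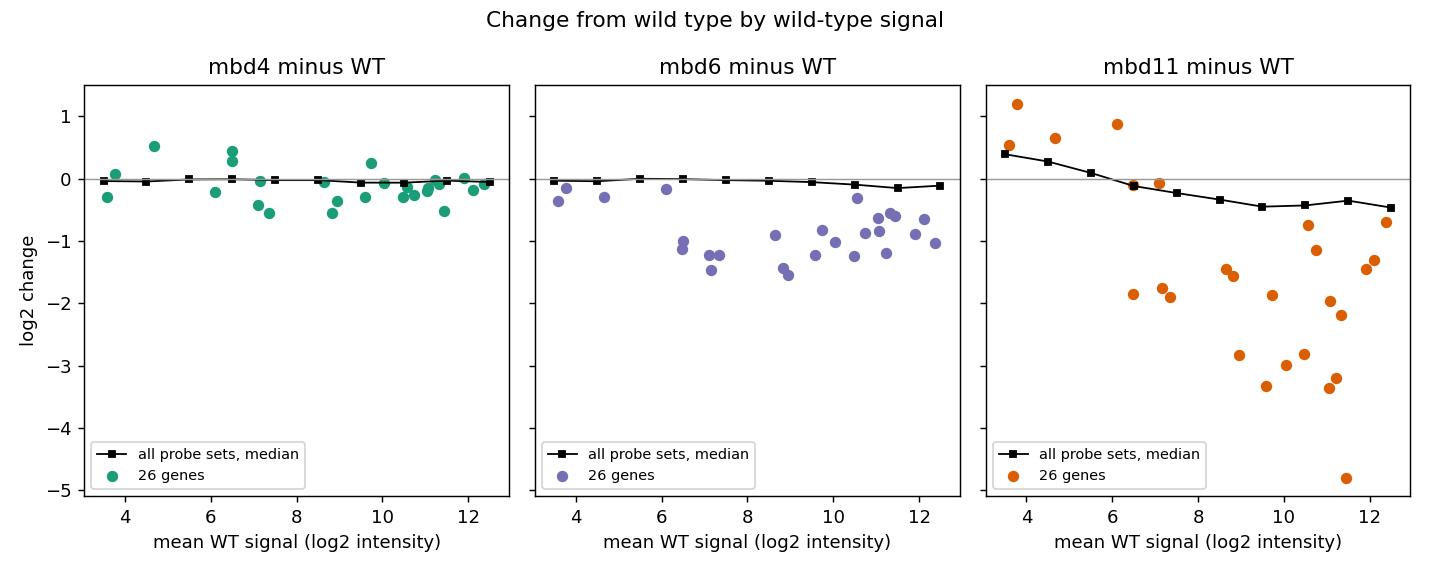
Log2 change of the 26 chloroplast genes against their mean WT signal in mbd4, mbd6 and mbd11 (coloured points), with the median change of all probe sets in classes of 1 log2 unit (black squares). In mbd11 the medians of all probe sets run from 0.39 in the lowest class to -0.47 in the highest, and most points lie below that line; all 26 points lie below 0 in mbd6.

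The 7 probe sets assigned to several chloroplast gene numbers are given as a description outside the members. They stand for the repeated genes rps12, rpl2, rpl23, ycf2, rps7 and ycf1, and 5 of 7 were called lower in mbd11, 3 in mbd6 and 0 in mbd4, beside 19.7%, 2.91% and 0.769% of all probe sets. Their changes ran from -3.14 to 0.88 in mbd11 and from -1.55 to -0.22 in mbd6. Their mean WT signals ran from 3.58 to 12.29. Among all probe sets of at least 8 in WT, 44.6% were called lower in mbd11 and 8.11% in mbd6. The ycf1 probe set, for a large protein of the inner envelope, was at 7.63 in mbd11 and 8.97 in mbd6, against 10.52 in WT. A pair of probe sets stands for rps12, and in mbd11 their changes were -1.02 (adjusted p = 0.141) and -3.14 (adjusted p = 3.9e-05).

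Other chloroplast, mitochondrial and nuclear gene sets were measured on the same arrays. The 43 measured chloroplast photosynthesis genes had 26 lower and 3 higher in mbd11 (median -1.59), 11 lower in mbd6 (median -0.69) and 0 called in mbd4 (median -0.06). The 18 probe sets of 11 mitochondrion-encoded genes, 7 of them for nad1, whose transcripts also mostly lack stable tails, had 0 lower and 4 higher in mbd11 (median 0.39) and 0 called in mbd6 (median -0.08). The share called higher in mbd11, 22.2%, was near the 20.4% of all probe sets, while 19.7% of all probe sets were called lower. Of 40 listed nuclear genes for chloroplast ribosomal proteins 10 were measured, and 2 fell in mbd11 (median -0.36) and 1 in mbd6 (median -0.40). The changes in mbd11 were -0.90 for AT4G17560 (adjusted p = 0.0216) and -0.66 for AT2G43030 (adjusted p = 0.0422), and in mbd6 -0.53 for AT1G29070 (adjusted p = 0.033). These counts are 20% of the 10 in mbd11 and 10% in mbd6, beside 19.7% and 2.91% of all probe sets. The 10 had mean WT signals of 10.15 to 12.24. Among all probe sets of at least 8 in WT, 44.6% were called lower in mbd11 (median -0.38) and 8.11% in mbd6 (median -0.06). Of 37 listed nuclear genes of plastid transcription and RNA processing 3 were measured, and CAF1, which acts in splicing of plastid introns, fell by 1.05 in mbd11 (adjusted p = 0.000176) and by 0.65 in mbd6 (adjusted p = 0.0193). The other 2 were not called in either mutant, and the median of the 3 was -0.18 in mbd11 and -0.21 in mbd6. The green-shoot markers RCA, LHCB4.1 and PRK all fell in mbd11, with changes of -1.03, -0.65 and -1.24, and 0 of 3 were called in mbd6. The mean of these 3 markers was 11.90 to 12.23 on the mbd11 arrays, 12.83 to 12.92 on the mbd6 arrays and 12.95 to 13.00 on the mbd4 arrays, against 13.04 to 13.10 on the WT arrays. The part of green tissue in the lower chloroplast signals was not tested. The mean of the 3 root markers was 7.70 to 7.88 on the mbd11 arrays, 8.02 to 8.33 on the mbd6 arrays and 7.79 to 8.05 on the mbd4 arrays, against 7.91 to 8 on the WT arrays. These root markers moved in different directions in mbd11: PYK10 changed by -1.73 (adjusted p = 8.72e-06) and EXPA18 by 1.08 (adjusted p = 0.000445), and the change of 0.17 for EXPA7 did not pass (adjusted p = 0.572).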

How the data were processed

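The data are 12 Affymetrix arrays of 22810 probe sets, of which 64 controls served only to describe the arrays. The authors deposited log2 intensities made with RMA, per the submitters' processing notes, which also name R 2.11. Whether 1 RMA run covered all 12 arrays is not stated there. No scan date or labelling batch could be tested. There were 0 missing values and 0 identical arrays, and the deposited table carries no detection call, so dim signals have no background test. Genes come from GEO's platform annotation, joined by gene number to RefSeq TAIR10.1, used for names and gene order only. Mitochondrial genes were matched by symbol.

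Each probe set was fitted with limma (R 4.3.3, limma 3.58.1), with 1 mean per genotype over all 12 arrays, 6 pairwise contrasts and eBayes (8 residual and 4.43 prior degrees of freedom). Tests are two-sided, p-values measure the spread between arrays, and the number of arrays limits precision. The test was also run on simulated data with independent noise for each probe set. Such data lack deviations that many probe sets share on 1 array, so the run does not bear on the member counts. Gene sets have counts and medians and no set test. Members, lists and alternatives were chosen with earlier results of these data known. By rule, any member may be named, and all array values are given for the 5 largest called falls and 3 largest called rises per mutant, members called alike in several mutants or called higher, and the rpo and other genes. From the lists, up to 4 called genes each were named. The array values of rpl20, rps15 and ycf4 were added after they were seen. Same-numbered replicates did not deviate together (r from -0.38 to 0.216). Alternatives were other scalings, filters, array subsets, weights, covariates, a replicate block, other eBayes options and leaving out each array. Figures used Python 3.11.15 and matplotlib 3.10.9.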

Additional observations from a re-analysis of the deposited data

How the results depend on the processing

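Alternatives changed 1 choice at a time. In mbd4 against WT 0 members were called under every alternative, when 0.321% to 4.58% of all probe sets were called lower. In mbd11 against WT the count called lower ran from 14 to 20 and the median change from -1.941 to -1.345. The share of all probe sets called lower in mbd11 ran from 12.6% with only the 6 arrays to 31.7% among probe sets with a mean of at least 5, beside 19.7%. In mbd6 against WT the 5 called lower became 21 with only the 6 arrays compared, 17 without the 3 mbd11 arrays, 20 with arrays weighted by genotype spread, 8 with the replicate block, 9 among probe sets with a mean of at least 5, 2 with a floor of 4 and 3 with the 25S signal as a covariate. The share of all probe sets called lower moved too, to 10%, 8.95%, 11%, 2.41%, 5.56%, 3.16% and 2.83% in that order, beside 2.91%. The count ran from 2 to 16 when 1 array was left out, and the share of all probe sets from 1.27% to 6.64%. The 1 called higher in mbd11 became 0 with quantile normalization, only the 6 arrays, weights, the mean filter (which removes rps14) or the floor, and 2 with the 3' minus 5' covariate, and ran from 0 to 1 when 1 array was left out. Of all 22746 probe sets 3862, 2225, 2640, 2690 (of 14371 after the filter), 2996 and 2528 were called higher in that order, beside 4649. With 1 array left out 3211 to 5705 were. With the 3' minus 5' covariate rpoC2 in mbd11 changed by 1.17 (adjusted p = 0.0481), beside -0.07 without it.

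Between mbd6 and mbd4 the 1 called lower became 6 with only the 6 arrays, 11 without the mbd11 arrays, 12 with weights, 3 with the mean filter and 0 with the 25S covariate, and ran from 0 to 8 when 1 array was left out. The share of all probe sets called lower moved to 4.14%, 5.62%, 5.1%, 2.38% and 0.857% in that order, beside 1.1%. With 1 array left out that share ran from 0.343% to 3.78%. Between mbd11 and mbd4 the 2 called higher became 1 with quantile normalization, the mean filter or the 25S covariate, 0 with only the 6 arrays, weights or the floor, and 4 with the 3' minus 5' covariate, and ran from 0 to 3 with 1 array left out, while the median ran from -1.80 to -1.28. Of all 22746 probe sets 3877, 2607 (of 14371 after the filter), 2282, 2040, 2558, 2958 and 3618 were called higher in that order, beside 5116. With 1 array left out 3384 to 6142 were. Between mbd11 and mbd6 the 11 called lower became 6 with weights and 5 with the 3' minus 5' covariate, when 13.6% and 13.9% of all probe sets were, beside 19.9%. The 4 called higher became 0 with only the 6 arrays or weights and 1 with the floor, when 2241, 2802 and 3015 of all 22746 probe sets were, beside 5120. With 1 array left out the members called higher ran from 1 to 5 and their median from -0.78 to -0.29. In those fits 3346 to 6071 of all probe sets were called higher. Apart from the filter, the floor and the choice of arrays, whose construction changes what is tested, the cause was not tested. Median centring moved the median of all probe sets in mbd11 to 0.22, beside 0.12 as deposited, and the members' median to -1.55. Samples share only a replicate number, and the replicate block changed no count in mbd4 or mbd11 against WT.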
